A study of Rattus norvegicus with 12 samples.

Results

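Heat shock proteins are chaperones, proteins that fold newly made chains, refold damaged ones and hand over the rest for degradation. HSP70 proteins bind exposed hydrophobic stretches and are driven by J-domain partners and by nucleotide exchange factors, HSP90 proteins finish the folding of kinases and receptors, and small heat shock proteins hold unfolded chains until the ATP-driven machines take over. Under heat or other protein stress the heat shock factor HSF1 leaves its complex with chaperones, forms trimers and binds repeats of NGAAN in the promoters of inducible chaperone genes, whereas unfolded protein in the endoplasmic reticulum (ER) acts through a separate pathway on ER chaperones. In the striatum, the input nucleus of the basal ganglia, methamphetamine (MA) is known for raising dopamine release, oxidative load and brain temperature, which is why chaperones are followed in MA models.

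The genes described here are 10 of the 17337 genes of the count table, taken by symbol: the HSP70 genes *Hspa1a*, *Hspa1b*, *Hspa5* and *Hspa8*, the HSP110 gene *Hsph1*, the J-domain gene *Dnajb1*, the HSP90 genes *Hsp90aa1* and *Hsp90ab1*, the small heat shock gene *Hspb1* and the transcription factor gene *Hsf1*. RNA was sequenced from whole striatum of 12 wild-type rats in 3 groups of 4, all of which had access to MA for 16 days. MA12 rats were taken 12 h and MA24 rats 24 h after their last session, and 4 further rats are labelled non-addicted after the same 16 days, with no abstinence time in the labels. The study's methods give male Sprague–Dawley rats, 8 weeks old at lever training, that pressed for intravenous MA in short daily sessions, and only rats with stable pressing went on. The methods do not describe the non-addicted rats, so what set them apart and when their tissue was taken are not known here. Saline and immediate-MA rats were not analysed here, and none of the groups below is drug-free.

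Libraries held 17908962 to 23850284 counts. All 10 striatal projection neuron markers were detected in every rat, with summed levels of 15284 to 21107 CPM (the count scaled to the size of the library). Markers of the vessel wall were lower in the non-addicted rats: the 9 endothelial markers in the table summed to 394 to 559 CPM there, against 526 to 673 in MA12 and 599 to 685 in MA24, and the 7 mural markers to 108 to 144 against 149 to 241 and 139 to 176 CPM. None of these 16 markers was at 0 in any group. The 6 oligodendrocyte markers, none of them at 0, summed to 11664 to 17294 CPM in the non-addicted rats, 12147 to 21721 in MA12 and 18089 to 21238 in MA24, so every MA24 rat was above every non-addicted rat. The 6 choroid plexus markers summed to 5.99 to 24.4 CPM in the non-addicted rats, with rat 9 the highest, against 2.73 to 8.31 in MA12 and 3.27 to 4.78 in MA24, and *Otx2* among them was at 0 in all rats of the non-addicted and MA24 groups. The part of these markers in the results below was not tested. In whole tissue, fewer cells of a type and less RNA per cell cannot be told apart. All MA24 rats, 2 of 4 MA12 rats and no non-addicted rat carry a number ending in N, a mark that the labels do not explain.

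The promoter letters that HSF1 and the ER pathway read were searched first, since heat shock genes are known by them. RefSeq (GRCr8) held the 250 bases upstream of the start for 7 of the 10 genes. *Hspa1b*, *Hsp90aa1* and *Hsf1* were not among them. The heat shock element of 3 units, GAANNTTCNNGAA on either strand (TTCNNGAANNTTC is its reverse), occurred in 0.663% of the 33469 promoters of that length and in those of *Hspa8*, where it was found at 2 places, and *Hsph1*. The element of 2 units was more common, with GAANNTTC in 7.23% and TTCNNGAA in 7.48% of all promoters. GAANNTTC was found in *Hspa8*, *Hsph1*, *Hspb1* and *Dnajb1*, and TTCNNGAA in *Hspa8* and *Hsph1*, in part inside the element of 3 units. The ER stress response element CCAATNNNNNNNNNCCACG was in 0.0657% of promoters, among them that of *Hspa5*, 43 to 25 bases before the start. The windows of *Hspa1a* and *Hsp90ab1* held no exact match to any of these. Elements with other letters or farther upstream were not searched, so a missing match does not show that an element is lacking. The stretches with matches are given 5′ to 3′ on the gene's strand, with the fixed letters of each match in capitals. They lie at chr8:50080294-50080513 (plus strand) for *Hspa8*, chr12:10427248-10427367 (plus) for *Hsph1*, chr19:41431142-41431201 (minus) for *Dnajb1*, chr12:26432302-26432441 (minus) for *Hspb1* and chr3:38452956-38453015 (plus) for *Hspa5*.
Hspa8: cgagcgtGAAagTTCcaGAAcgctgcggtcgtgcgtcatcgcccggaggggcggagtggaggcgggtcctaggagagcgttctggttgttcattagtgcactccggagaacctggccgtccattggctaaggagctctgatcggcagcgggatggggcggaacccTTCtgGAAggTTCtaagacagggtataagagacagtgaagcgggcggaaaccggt
Hsph1: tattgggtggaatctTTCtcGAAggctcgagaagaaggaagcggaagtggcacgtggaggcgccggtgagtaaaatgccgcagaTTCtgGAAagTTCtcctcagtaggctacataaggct
Dnajb1: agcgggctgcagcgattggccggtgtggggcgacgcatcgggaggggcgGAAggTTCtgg
Hspb1: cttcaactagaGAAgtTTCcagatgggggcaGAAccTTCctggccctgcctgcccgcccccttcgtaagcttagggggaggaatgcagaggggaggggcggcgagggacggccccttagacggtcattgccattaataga
Hspa5: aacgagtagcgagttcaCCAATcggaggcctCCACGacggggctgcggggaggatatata
A match is a description of these letters and not evidence that a factor binds there, and these coordinates are of another build than the rn6 of the counts.

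Rat to rat, the 10 genes ran from among the steadiest to among the most variable genes of the tissue. *Hsp90ab1*, the constitutive cytosolic HSP90, had an SD over the 12 rats of 0.06 on the log2 CPM scale, and only 0.798% of 12649 genes had a smaller one. *Hsph1*, a nucleotide exchange factor of HSP70, had an SD of 0.09 (6.62% of genes below), and *Hspa8*, the constitutive HSC70 that also uncoats clathrin vesicles, 0.12 (17.1% below). *Dnajb1*, the HSP40 partner of HSP70, *Hsf1* and *Hsp90aa1*, the inducible HSP90, lay near the middle with SDs of 0.19, 0.19 and 0.24 (47.0%, 49.0% and 58.8% below). *Hspa5*, the ER chaperone BiP, had an SD of 0.32 (71.9% below). *Hspb1*, the small heat shock protein HSP27, had 0.45 (81.9% below). The inducible HSP70 genes varied most, with 0.67 for *Hspa1a* (91.3% below) and 0.82 for *Hspa1b* (94.8% below), and both were counted few times, on average 31.8 and 26.7 counts per rat. SDs of genes this low include counting error: the 7 counts of *Hspa1b* in MA12 rat 7N have an exact Poisson 95% interval of 2.81 to 14.4.

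**Figure D1:**
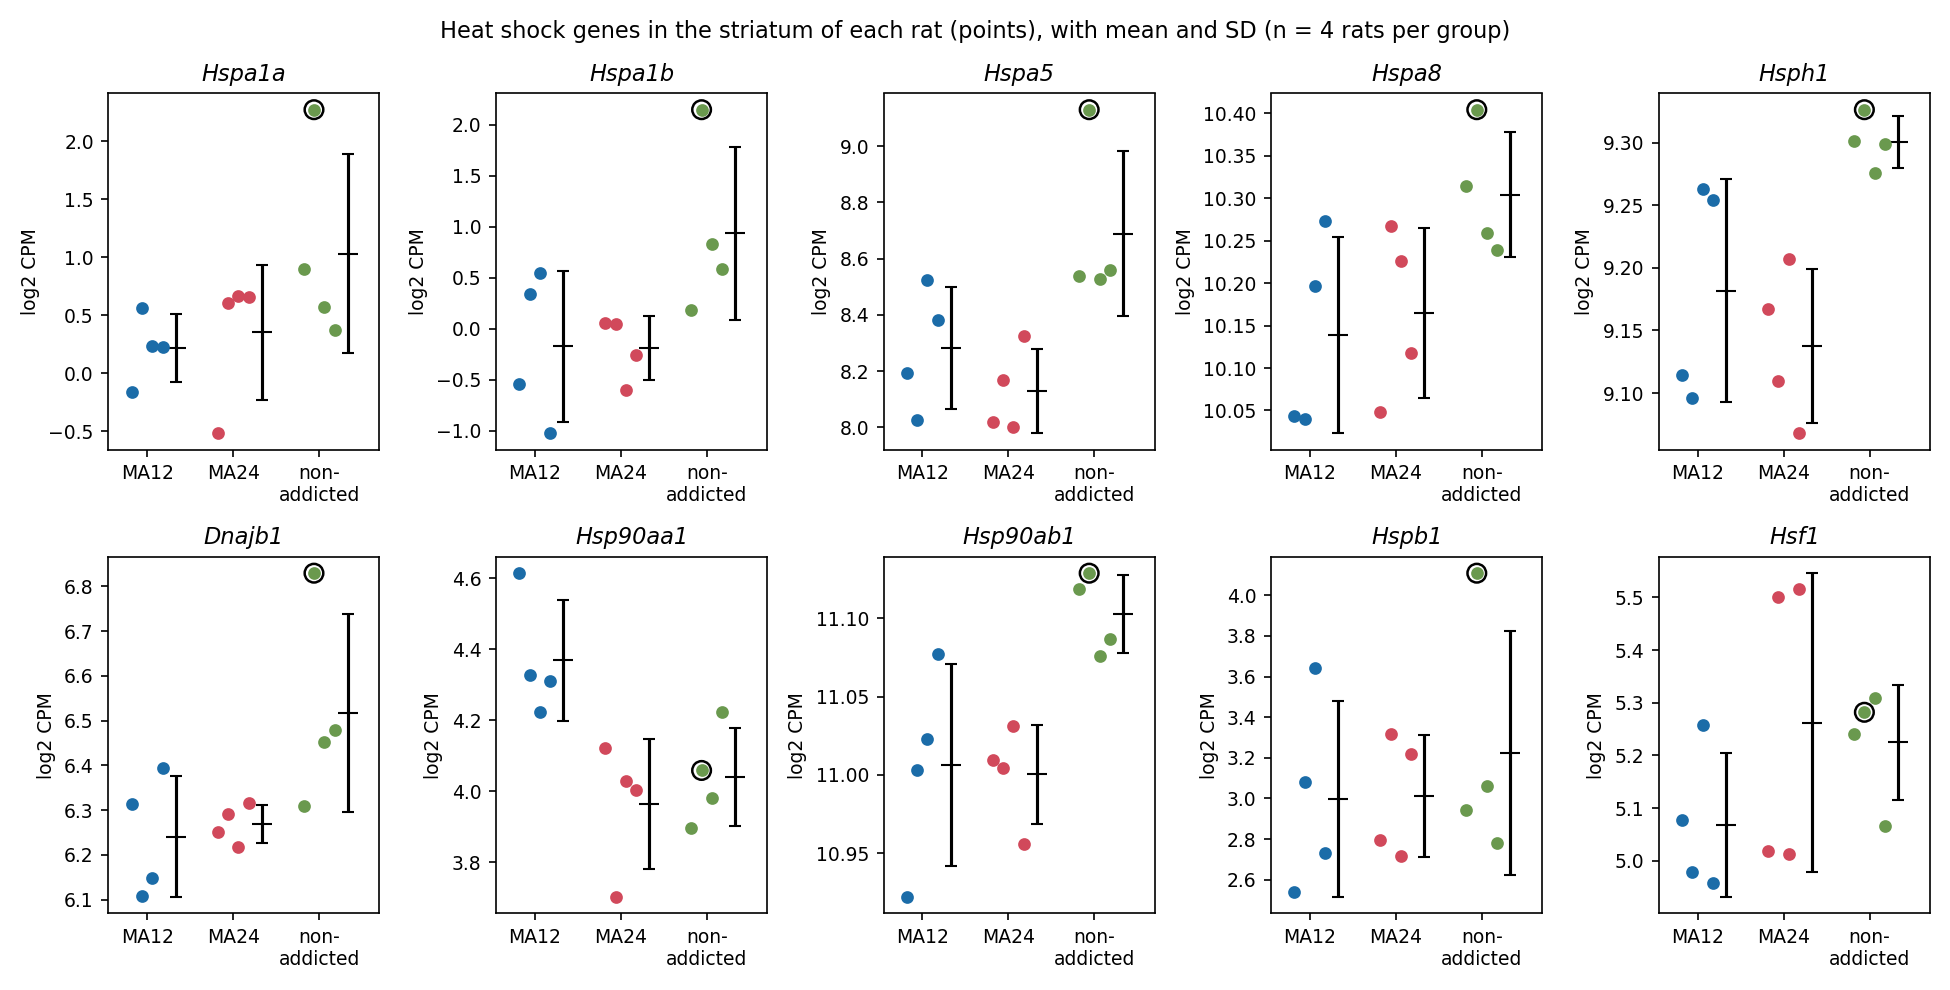
Level of each heat shock gene in each of the 12 rats, in log2 CPM on an axis of its own per gene, with points for rats in MA12, MA24 and non-addicted (4 each) and a black bar for the group mean with SD. Non-addicted rat 11 is ringed in black and is the highest of the 12 rats for 8 of the 10 genes.

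The first comparison asks what differed between 12 h and 24 h of abstinence. A DEG here is a gene that changed by a factor (FC) of 1.5 or more with an adjusted p under 0.05. None of the 10 genes was a DEG in MA24 vs. MA12 by edgeR, where 2% of the 10754 tested genes were. DESeq2 called none of the 6 that it tested, where it called 330 of the 10754 genes. One gene, *Hsp90aa1*, had an unadjusted p below 0.05, against 23.3% of all tested genes, so the share in the 10 genes was not above the background. By sign, 4 of 10 were higher at 24 h, where 49.2% of all genes were. The median log2 FC of the 10 genes was -0.02, and that of all genes -0.00485. Of the 10, 4 were removed by the filter on low variance (*Hspa8*, *Hsph1*, *Dnajb1* and *Hsp90ab1*), and their values come from the same fit without that filter.

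*Hsp90aa1* was the member that differed most between the abstinence times. The gene has close copies in the genome, so its values are those of the reads that the counting kept, on average 370.5 per rat. It measured 24.4, 20.0, 18.6 and 19.8 CPM in MA12 rats 21, 31, 4N and 7N. In MA24 rats 9N, 14N, 15N and 16N it measured 17.3, 12.9, 16.2 and 15.9 CPM. Every MA24 rat was below every MA12 rat, which 7.64% of genes also showed in that direction. The log2 FC was -0.38 ± 0.13 (SE, 95% interval -0.65 to -0.11, n = 4 per group), an FC of 0.770, with an adjusted p of 0.0923. The difference was -0.29 (adjusted p = 0.463) when only rats numbered with N were used, and the adjusted p ran from 0.0597 to 0.463 over the alternatives. *Hsf1* measured 33.7, 31.5, 38.2 and 31.0 CPM in the MA12 rats and 32.3, 45.2, 32.2 and 45.6 CPM in the MA24 rats. MA24 rats 14N and 16N were thus the highest of all 12 for this gene, while 9N and 15N lay inside the MA12 range, and the log2 FC of 0.24 ± 0.13 had an adjusted p of 0.293.

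The remaining 8 genes had log2 FCs between -0.13 (*Hspa5*) and 0.23 (*Hspa1a*) and adjusted p-values of 0.537 or more. How much change these rats could have hidden differed widely between them. The 95% interval of the FC ran from 0.897 to 1.11 for *Hsp90ab1*, from 0.871 to 1.08 for *Hsph1*, from 0.902 to 1.15 for *Hspa8* and from 0.904 to 1.15 for *Dnajb1*, so a change of 1.5-fold lay outside it for these 4. For *Hspa5* it ran from 0.764 to 1.09 and for *Hspb1* from 0.706 to 1.41, so 1.5-fold lay outside it here too. For *Hspa1a* it ran from 0.630 to 2.17 and for *Hspa1b* from 0.445 to 1.90, so for this pair it held a change of 1.5-fold in either direction.

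**Figure D2:**
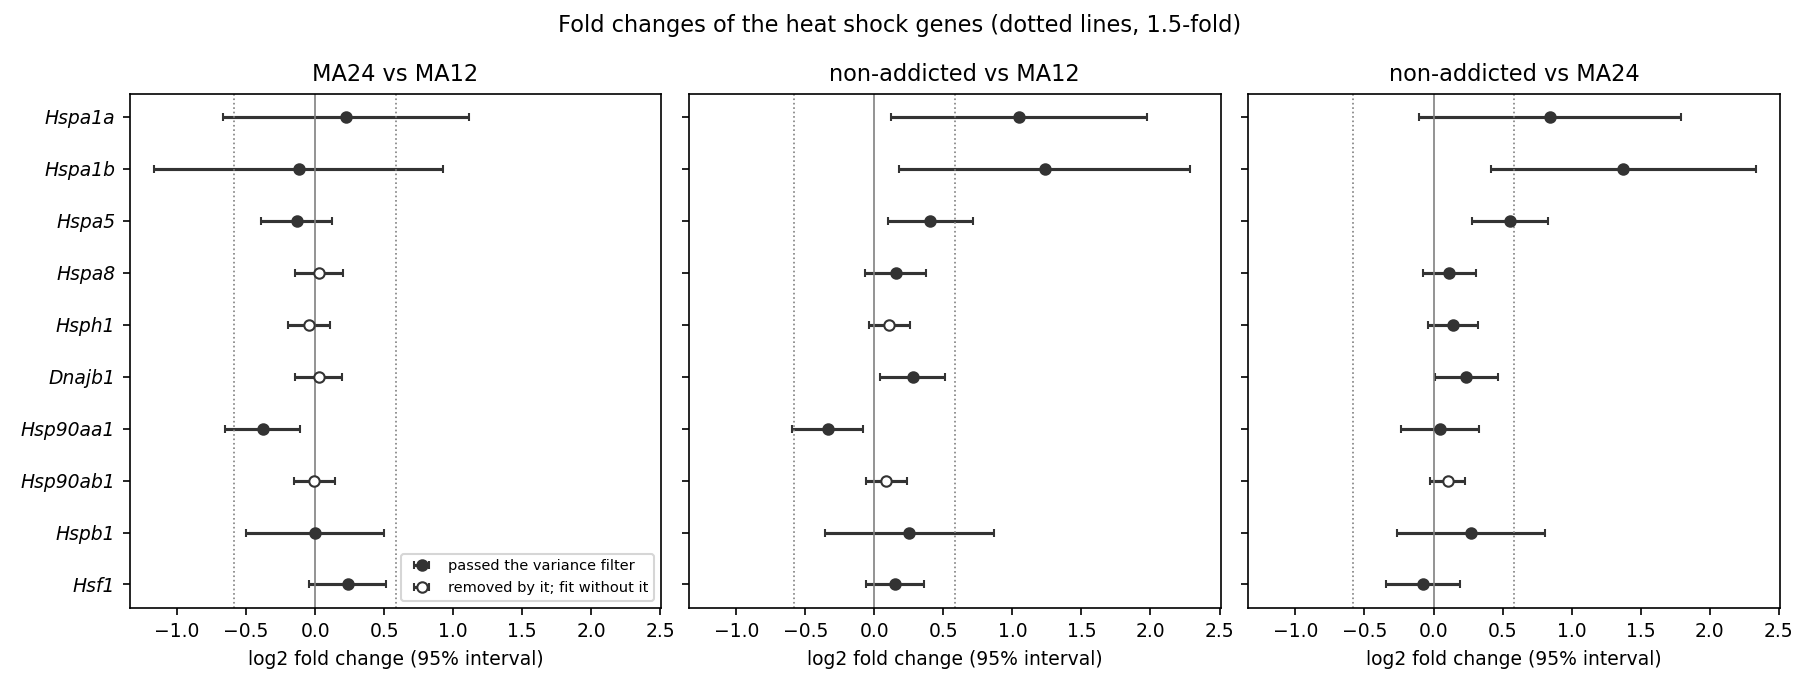
Log2 fold changes of the 10 heat shock genes with 95% intervals from edgeR in the 3 comparisons (first group minus second, 4 rats each), filled where the gene passed the variance filter and open where the value is from the fit without it. Dotted lines mark a 1.5-fold change, and no gene is a DEG, with *Hspa5* in non-addicted vs. MA24 nearest at a log2 FC of 0.55.

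In the non-addicted rats the group means were the highest of the 3 groups for 8 of the 10 genes, the exceptions being *Hsp90aa1* (highest in MA12) and *Hsf1* (highest in MA24). Again no gene was a DEG by edgeR. The background was 0.102% of 10758 genes in non-addicted vs. MA12 and 0.149% of 10744 in non-addicted vs. MA24. DESeq2 tested 8 of the 10 genes against MA12 and 9 against MA24 and called none. Over all genes it called 78 and 122 in these comparisons. In non-addicted vs. MA12, 4 genes were higher with an unadjusted p below 0.05 (*Hspa1a*, *Hspa1b*, *Hspa5* and *Dnajb1*) and 1 was lower (*Hsp90aa1*), where 5.42% of all tested genes were higher and 7.10% lower at that p. In non-addicted vs. MA24, 3 genes were higher (*Hspa1b*, *Hspa5* and *Dnajb1*) and none lower, where 8.21% of all were higher. By sign alone, 9 of 10 genes were higher in each of these comparisons, where 48.0% and 50.5% of all genes were, and the median log2 FC was 0.21 in both, against -0.00754 and 0.00293 over all genes. The comparisons share the 4 non-addicted rats, so these counts are not independent of each other.

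*Hspa5* had the smallest p. It measured 371, 560, 369 and 377 CPM in non-addicted rats 9, 11, 12 and 13. In MA12 rats 21, 31, 4N and 7N it measured 293, 261, 368 and 334 CPM, and in MA24 rats 9N, 14N, 15N and 16N 259, 287, 256 and 320 CPM. All non-addicted rats were above all MA24 rats, and also above all MA12 rats, the last by a margin of 369 against 368 CPM. Groups apart in this direction were found for 4.91% of genes against MA24 and 3.38% against MA12. The log2 FC was 0.55 ± 0.13 (SE, 95% interval 0.28 to 0.83) against MA24, an FC of 1.47. By edgeR the unadjusted p was 0.000518 and the adjusted p 0.0717. DESeq2 gave the same FC of 1.47 with an adjusted p of 0.00601, so *Hspa5* passed the p threshold in that test and remained short of the 1.5-fold one. Over the alternatives the adjusted p ran from 0.00601 to 0.205. Against MA12 the log2 FC was 0.41 ± 0.15 with an adjusted p of 0.271.

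*Hspa5* became a DEG under 2 of the alternatives. With total counts in place of TMM factors, the log2 FC against MA24 was 0.62 (adjusted p = 0.0210). Without non-addicted rat 13 it was 0.59 (adjusted p = 0.0261). Without rat 11, the highest one, it was 0.39 with an unadjusted p of 0.00228 and an adjusted p of 0.205, and rats 9, 12 and 13 were still above every MA24 rat.

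The inducible HSP70 genes had the largest FCs and the widest errors. *Hspa1a* had 34, 96, 34 and 23 counts in non-addicted rats 9, 11, 12 and 13. It had 19, 33, 23 and 19 counts in the MA12 rats and 14, 29, 29 and 28 in the MA24 rats. *Hspa1b* had 20, 88, 41 and 27 counts in the same non-addicted rats, 14, 28, 29 and 7 in MA12 and 22, 19, 11 and 14 in MA24. Rat 11 stood far above all others for both genes, and the other non-addicted rats lay at or a little above the abstinent ones. The log2 FC of *Hspa1b* was 1.24 ± 0.49 against MA12 (adjusted p = 0.323) and 1.37 ± 0.46 against MA24 (adjusted p = 0.155). That of *Hspa1a* was 1.05 ± 0.44 (adjusted p = 0.334) and 0.84 ± 0.45 (adjusted p = 0.338).

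*Hspa1a* and *Hspa1b* lie side by side and encode almost the same protein, so reads that match both can be split or dropped by the counting, whose handling of such reads is not given in the sources used here. Their sum does not depend on how shared reads were split, though any dropped reads would be missing from it. It was 2.81, 9.07, 3.08 and 2.60 CPM in non-addicted rats 9, 11, 12 and 13, against 1.39 to 2.55 CPM in MA12 and 1.55 to 2.37 CPM in MA24. In CPM the sum was thus higher in each of the 4 non-addicted rats than in any abstinent rat. Rat 13 was just above MA12 rat 31 (2.60 against 2.55 CPM), but before scaling it had 50 counts against 61, so this order rests on the library scaling. Groups apart in this direction were found for 3.38% of genes against MA12 and 4.91% against MA24. Without rat 11 the mean sum was 2.83 ± 0.24 CPM (SD, n = 3), against 1.96 ± 0.62 in MA12 and 2.05 ± 0.36 in MA24 (n = 4 each). These levels are those of 26 to 184 counts per rat, and the sum was formed after the values were seen and was not tested. *Hsp90aa1* and *Hspa8* also have close copies in the genome, and their values carry the same doubt. Mean counts per rat were 370.5 for *Hsp90aa1* and 24680 for *Hspa8*, beside 44022 for *Hsp90ab1*. How many reads of these genes were lost or split was not tested.

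*Dnajb1* measured 79.2, 114, 87.4 and 89.1 CPM in non-addicted rats 9, 11, 12 and 13, against 68.9 to 84.0 in MA12 and 74.3 to 79.6 in MA24. Rat 9 lay inside the range of MA12 and the other 3 above both abstinent groups. The log2 FC was 0.28 ± 0.11 against MA12 (adjusted p = 0.322) and 0.24 ± 0.11 against MA24 (adjusted p = 0.267). *Hsp90aa1* went the other way from most: it measured 14.8, 16.6, 15.7 and 18.6 CPM in the non-addicted rats, a log2 FC of -0.34 ± 0.12 against MA12 (adjusted p = 0.270) and of 0.05 ± 0.13 against MA24 (adjusted p = 0.879). Its level at 12 h therefore stood above both other groups, though rat 13 of the non-addicted group reached the lowest MA12 rat at 18.6 CPM. The values at 12 h enter both comparisons.

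The log2 FCs of *Hsph1*, *Hsp90ab1* and *Hspa8* were small, and none had an unadjusted p below 0.05. *Hsph1* measured 631, 642, 620 and 630 CPM in the non-addicted rats, against 547 to 614 in MA12 and 537 to 591 in MA24, so the non-addicted rats were apart from both groups. Its log2 FCs were 0.11 ± 0.07 (adjusted p = 0.578) and 0.14 ± 0.09 (adjusted p = 0.405). *Hsp90ab1* measured 2159 to 2239 CPM in the non-addicted rats, 1940 to 2161 in MA12 and 1986 to 2093 in MA24. It was apart from MA24 and overlapped MA12 by 1 rat, 7N, with log2 FCs of 0.09 ± 0.07 and 0.10 ± 0.06 (adjusted p = 0.674 and 0.386). *Hspa8* measured 1209 to 1355 CPM in the non-addicted rats, 1053 to 1237 in MA12 and 1059 to 1233 in MA24, with log2 FCs of 0.16 ± 0.10 and 0.12 ± 0.09 (adjusted p = 0.568 and 0.529). In all, 2 of the 10 genes had all non-addicted rats above all MA12 rats (*Hspa5* and *Hsph1*), and 4 had them above all MA24 rats (*Hspa1b*, *Hspa5*, *Hsph1* and *Hsp90ab1*). For all genes with a mean count above 4 these shares were 3.38% and 4.91%.

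*Hspb1* and *Hsf1* did not separate the groups. *Hspb1* measured 7.60, 17.2, 8.24 and 6.77 CPM in non-addicted rats 9, 11, 12 and 13, against 5.72 to 12.4 in MA12 and 6.47 to 9.86 in MA24. Apart from rat 11, and MA12 rat 4N at 12.4 CPM, no rat exceeded 9.86 CPM. The log2 FCs were 0.25 ± 0.29 and 0.27 ± 0.25 (adjusted p = 0.764 and 0.610). *Hsf1* measured 33.4 to 39.6 CPM in the non-addicted rats, inside the MA24 range and overlapping that of MA12, with log2 FCs of 0.15 ± 0.10 and -0.08 ± 0.13 (adjusted p = 0.575 and 0.784).

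A single animal carried much of what set the non-addicted group apart. Non-addicted rat 11 was the highest of the 12 rats for 8 of the 10 genes, all but *Hsf1* and *Hsp90aa1*. No other rat was highest for more than 1. Against the mean of the other 3 non-addicted rats its level was 3.26 times as high for *Hspa1a*, 3.15 times for *Hspa1b*, 2.28 times for *Hspb1*, 1.5 times for *Hspa5* and 1.33 times for *Dnajb1*. For *Hspa8*, *Hsph1* and *Hsp90ab1* the ratio was 1.10, 1.02 and 1.02, and for *Hsf1* and *Hsp90aa1* 1.05 and 1.01.

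Summed thalamic and ependymal markers, of tissue next to the striatum, were also highest in rat 11. Its 4 thalamic markers summed to 73.4 CPM, against 27.6 to 62.7 in the other 11 rats. Of that sum *Prkcd* alone gave 58.1 CPM, and it reached 50.3 CPM in MA12, while *Slc17a6*, the defining marker of the list, was at most 0.641 CPM in any rat. The other 2 did not set the group apart. *Lef1* was at most 4.80 CPM in the non-addicted rats against up to 7.69 in MA12, and *Tcf7l2* overlapped (6.98 to 9.91 against 7.79 to 9.55 CPM). In rat 11 the 5 ependymal markers summed to 117 CPM, against 48.5 to 109 in the other 11 rats. Its striatal projection neuron markers summed to 15896 CPM, near the lowest of the other rats (15284). None of these lists had a marker at 0 in all rats of a group. Whether these differences have a part in the chaperone levels of rat 11 was not tested.

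Without rat 11 the log2 FCs against MA12 were 0.43 for *Hspa1a*, 0.64 for *Hspa1b*, 0.25 for *Hspa5* and 0.17 for *Dnajb1*, and none of these had an unadjusted p below 0.05. Against MA24 they were 0.20, 0.76, 0.39 and 0.13, and *Hspa5* alone of these kept an unadjusted p below 0.05 (0.00228). *Hspb1* changed sign, to -0.13 and -0.12. By sign, 8 of 10 genes were still higher than in MA12 and 8 of 10 than in MA24, with median log2 FCs of 0.13 and 0.11. The values of *Hsph1* (0.10 and 0.13), *Hsp90ab1* (0.08 and 0.09) and *Hsp90aa1* (-0.33 and 0.05) hardly moved.

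**Figure D3:**
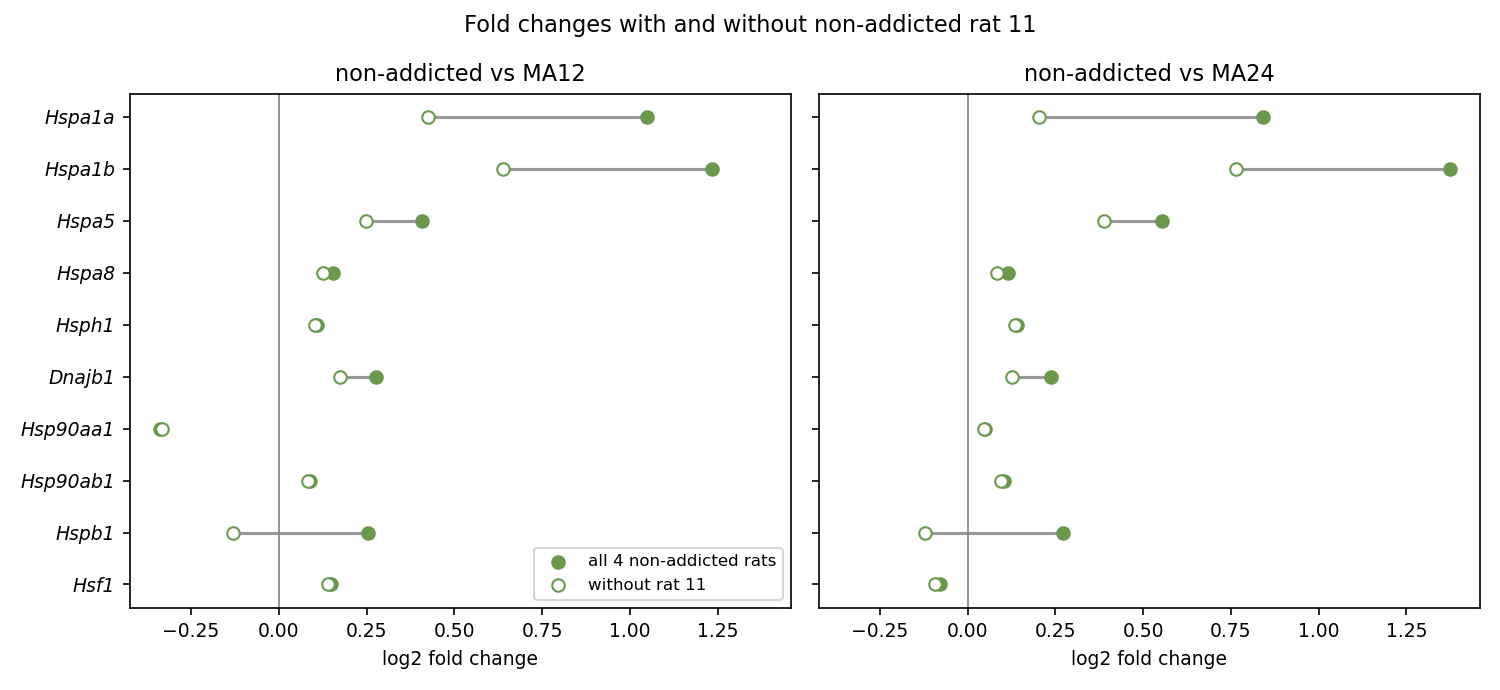
Log2 fold changes of the 10 heat shock genes with all 4 non-addicted rats (filled) and without rat 11 (open), against MA12 on the left and MA24 on the right. The inducible *Hspa1a* and *Hspa1b* move most, *Hspb1* crosses 0, and *Hsph1*, *Hsp90ab1* and *Hsp90aa1* stay in place.

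The 10 genes were next compared with each other over the 12 rats. Of 45 pairs, 34 had a positive Pearson correlation of log2 CPM, and 9 passed an adjusted p of 0.05 (permutation test, 100000 resamples, adjusted over the 45 pairs), all positive. The closest pair was *Hsph1* with *Hsp90ab1*, at r = 0.895 and Spearman's rho = 0.923 (permutation p = 5e-05 and 6e-05, adjusted p = 0.00225 and 0.0027). Leaving out rats 31 and 16N, the farthest from the median of *Hsph1*, gave r = 0.896. *Hspa8* with *Hsp90ab1* had r = 0.83 and rho = 0.825 (permutation p = 0.00112 and 0.00171, adjusted p = 0.0252 and 0.0385), and r = 0.791 without rats 21 and 31, where the adjusted permutation p was 0.0792. *Hspa5* with *Dnajb1* had r = 0.827 and rho = 0.727 (permutation p = 0.00309 and 0.00963, adjusted p = 0.0294 and 0.108), and r = 0.533 without rats 11 and 15N, so it rested in part on those rats.

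The inducible pair *Hspa1a* and *Hspa1b*, neighbours in the genome, had r = 0.676 but rho = 0.252 (permutation p = 0.0302 and 0.429, adjusted p = 0.0849 and 0.603). Without rats 11 and 9N r was 0.276, so the relation rested on these animals. *Hsp90aa1* had negative r with each of the other 9 genes, the farthest from 0 with *Hsf1* (r = -0.661, rho = -0.657, permutation p = 0.0177 and 0.0243, adjusted p = 0.0568 and 0.13). The doubt about close copies of *Hsp90aa1* holds for these values too. By rank, 2 of the 45 pairs passed, *Hsph1* with *Hsp90ab1* and *Hspa8* with *Hsp90ab1*, and 1 passed when the 2 farthest rats were left out. On deviations from the group means none passed (smallest adjusted permutation p 0.233). There *Hspa1b* with *Hspb1* (r = 0.854) and *Hspa5* with *Hspb1* (r = 0.793) were closer than *Hsph1* with *Hsp90ab1* (r = 0.767). On levels without rat 11 these pairs had r = 0.509, 0.274 and 0.872. All points share the scaling of their library.

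**Figure D4:**
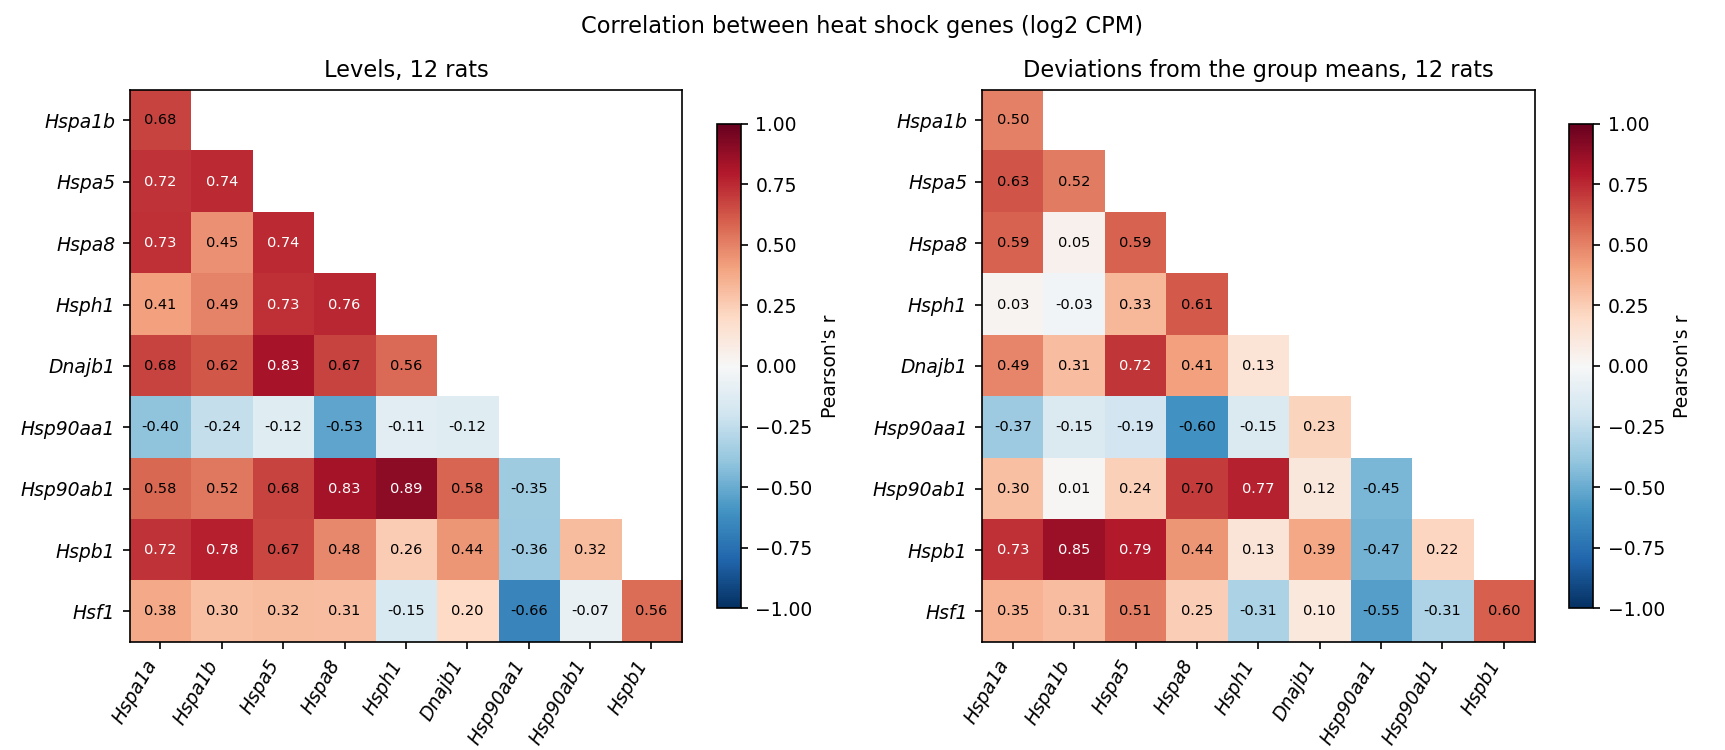
Pearson's r of log2 CPM for the 45 pairs of heat shock genes over the 12 rats, of the levels on the left and of the deviations from the group means on the right. *Hsph1* with *Hsp90ab1* is the closest pair on the left at 0.895, and *Hsp90aa1* is negative with all 9 others there.

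Among all genes, the closest companions were listed for *Hspb1*, the member with the largest SD at a mean count of at least 50. Over deviations from the group means of 12 rats and 10764 genes these were *Hexa* (r = 0.890), *Vat1* (0.857), *Csgalnact1* (0.853), *Trak1* (0.852) and *Kansl3* (0.834). These are descriptions of the same 12 libraries, with no p. None is a chaperone gene of the lists, and rat 11 was the highest of all rats for *Vat1*, *Trak1* and *Kansl3*.

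The wider chaperone network was described with 92 further genes in 8 lists by role. Of these 58, 59 and 71 were tested in the 3 comparisons, and edgeR called none a DEG in any, beside the 2%, 0.102% and 0.149% over all genes. DESeq2 called 1 in MA24 vs. MA12, *Dnajb14*, and none in the others, where it called 330, 78 and 122 genes over all. In MA24 vs. MA12, 4 were higher and 10 lower with an unadjusted p below 0.05 (6.90% and 17.2% of those tested, against 12.0% and 11.4% of all genes). In non-addicted vs. MA12, 11 were higher and 0 lower (18.6% higher, against 5.42% of all genes, with 7.10% lower). In non-addicted vs. MA24, 16 were higher and 1 was lower (22.5% higher and 1.41% lower, against 8.21% and 9.40% of all genes). By sign, 59 of 71 were higher there, and the median log2 FC was 0.15 against 0.01 over all tested genes. These counts depended on single rats, rat 11 among them. Without rat 11, 5 were higher and 0 lower against MA12 (9.09% higher, against 4.25% of all genes). Leaving out an MA12 rat could lower that count as well, to 4 of 61 in either direction without rat 31 and 7 of 63 without rat 21. With any other rat left out it was 10 to 12. Against MA24 without rat 11, 6 were higher and 2 lower (8.82% higher, against 5.81% of all genes). By sign, 55 of 68 were still higher than in MA24, at a median log2 FC of 0.15.

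By role, in non-addicted vs. MA24 6 of 15 tested genes of ER chaperones and the unfolded protein response were higher and 1 lower at an unadjusted p below 0.05. Of all tested genes, 8.21% were higher and 9.40% lower at that p. Without rat 11 none of the 14 ER genes tested was higher at that p and 1 was lower, against 5.81% and 7.84% of all genes. By sign, 11 of these 14 were still higher, where 5424 of 10729 genes were. Their median log2 FC was 0.15, and 0.18 with rat 11 included. Against MA12 without rat 11, 2 of 10 ER genes were higher at that p, where 4.25% of all genes were. By sign, 5 of these 10 were higher, where 5230 of 10756 genes were. Higher at that p were also 4 of 15 J-domain genes, 3 of 14 co-chaperones, 2 of 9 genes of the HSP70 family and the 1 of the HSP90 family, and the lists were not compared by a test. All 15 J-domain genes and all 7 chaperonin genes had a positive log2 FC, though none of the chaperonins had a p below 0.05. Small heat shock genes (3 of 6 higher) and heat shock factors with their binders (1 of 4) showed no lean to that side. By sign, 50.5% of all genes were higher in that comparison. Against MA12 the higher genes were co-chaperones (6 of 12), ER genes (4 of 13) and 1 of 14 J-domain genes, where 5.42% of all genes were higher. In MA24 vs. MA12 the lower ones were 4 of 13 J-domain genes, 3 of 9 HSP70 genes, the 1 HSP90 gene, 1 of 12 co-chaperones and 1 of 10 ER genes. The higher ones were 2 co-chaperones, 1 small heat shock gene and 1 ER gene. Of all tested genes 11.4% were lower and 12.0% higher there.

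*Herpud1*, which helps ER-associated degradation, measured 59.3 to 77.3 CPM in the non-addicted rats, 46.1 to 55.9 in MA12 and 50.3 to 57.7 in MA24. The non-addicted rats lay above all others, with log2 FCs of 0.38 (adjusted p = 0.147) and 0.27 (adjusted p = 0.203). Groups apart in this direction were found for 3.38% of genes against MA12 and 4.91% against MA24. *Herpud1* and the genes that follow were named for a small p, which makes groups apart more likely among them. *Xbp1*, the spliced transcription factor of the unfolded protein response, measured 115 to 164 CPM in the non-addicted rats, 82.9 to 104 in MA12 and 93.1 to 119 in MA24, with log2 FCs of 0.44 (adjusted p = 0.147) and 0.29 (adjusted p = 0.229). Rat 11 was the highest of all rats for both.

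The J-domain gene *Dnajb4* measured 47.1 to 52.6 CPM in the non-addicted rats, 38.8 to 46.6 in MA12 and 31.7 to 41.2 in MA24. The non-addicted rats lay above all others, as for 3.38% of genes against MA12 and 4.91% against MA24, and here rat 11 was the lowest of them. The log2 FC was 0.25 against MA12 (adjusted p = 0.286) and 0.41 against MA24 (adjusted p = 0.0821). The HSP90 co-chaperone *Chordc1* had a log2 FC of 0.45 against MA24 (adjusted p = 0.101), and *Ahsa2*, which belongs to a family of HSP90 activators, one of 0.37 against MA12 (adjusted p = 0.270). Rat 11 was the highest of all rats for both, at 61.1 and 25.8 CPM.

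*Sil1* and *Bag1*, nucleotide exchange factors of BiP and of cytosolic HSP70, were higher at 24 h than at 12 h. *Sil1* measured 28.1 to 32.0 CPM in MA24, 20.9 to 26.1 in MA12 and 23.1 to 26.7 in the non-addicted rats. Every MA24 rat was above every other rat, with a log2 FC of 0.38 against MA12 (adjusted p = 0.0577) and of -0.32 for non-addicted vs. MA24 (adjusted p = 0.157). MA24 was above MA12 without overlap for 6.77% of genes, and above the non-addicted rats for 4.49%. The non-addicted rats were thus below MA24 for *Sil1* and above MA24 for *Hspa5*, the gene of the BiP protein that *Sil1* serves. *Bag1* measured 109 to 118 CPM in MA24, 89.4 to 96.7 in MA12 and 90.7 to 112 in the non-addicted rats. Its log2 FC in MA24 vs. MA12 was 0.31 (adjusted p = 0.0517) with no overlap, while non-addicted rat 13 lay inside the MA24 range. *Dnajb14*, an ER membrane J-domain gene, measured 6.21 to 14.5 CPM in MA24 and 13.8 to 19.5 in MA12, with a log2 FC of -0.66 (adjusted p = 0.0709). DESeq2 called it (adjusted p = 0.0308, log2 FC -0.66), and the groups overlapped through rat 9N.

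**Figure D5:**
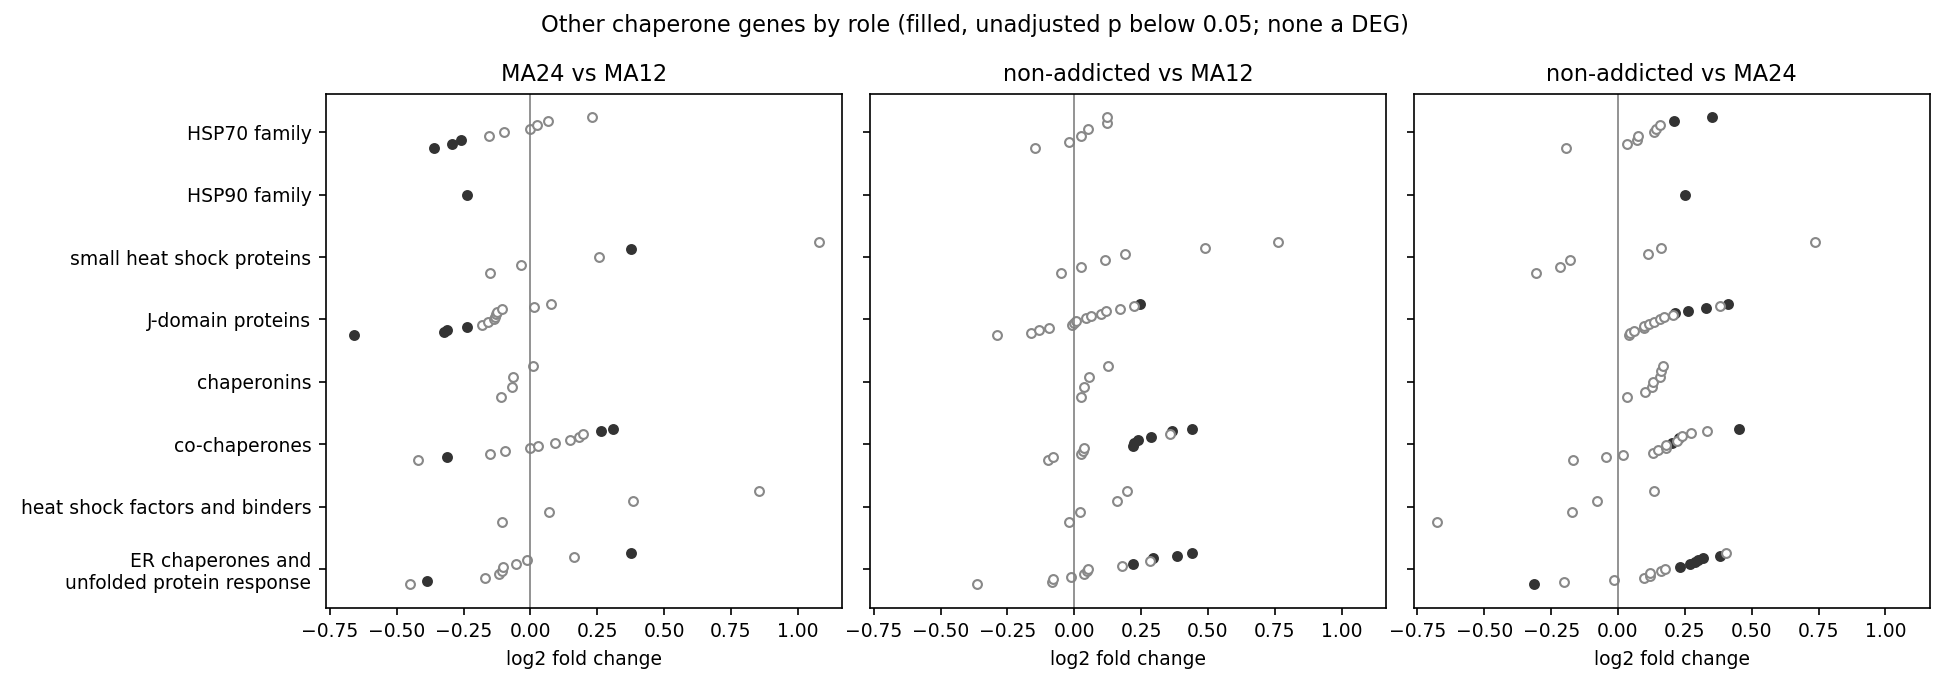
Log2 fold changes of the other chaperone genes that were tested, by role, in the 3 comparisons, with filled points for an unadjusted p below 0.05 and open points for the rest. None is a DEG, and in non-addicted vs. MA24 59 of 71 points lie to the right of 0.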

How the data were processed

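Poly-A RNA of the 12 striata was sequenced by the authors in paired-end reads (TruSeq v2). The authors removed adapters with Cutadapt 1.18, used STAR 2.7.0e to align reads to rn6 and featureCounts to assign them to genes. The submitters' processing notes also list HTSeq 0.12.4. The deposited values are raw counts of 17337 genes per rat, without normalization, and all 12 columns were used. Strand and multi-mapping settings are not given in the sources used here. The labels give 1 date for all libraries. Sample titles gave the groups.

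Each pair of groups had its own fit in edgeR (4.0.16, R 4.3.3). A gene entered with a mean count over 4 across the 8 libraries and a variance of log2 CPM above the lowest 15%, and libraries were then scaled by TMM. The quasi-likelihood test was used with Benjamini-Hochberg adjustment over all genes tested. DEGs were set at 0.05 for the adjusted p and 1.5 for the FC, as in the study's methods. Its filters are not defined further. The fit was tested on simulated data. Intervals are 95%, and those of counts cover counting error only. Levels are CPM after TMM, or log2 CPM with a prior count of 2. Correlations used 100000 permutations in Python 3.11.15 with scipy 1.17.1.

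The members and lists were chosen with earlier results of these data known, so no list was tested. Named genes are the 10 members, any DEG among the other chaperones with the 3 of smallest p in each comparison, and the 5 genes most like the most variable member with a mean count of 50 or more. The alternatives were RLE factors, total counts, DESeq2 1.42.0, edgeR's likelihood ratio test, looser and stricter filters, a fit of all 3 groups, rats of one kind of number, each rat left out, and, added after seeing the data, TMM factors computed before the variance filter.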

Additional observations from a re-analysis of the deposited data

Results flagged for a closer look

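In each of 54 sets of 4 rats (18 genes in 3 groups), the gap between the outermost rat and its neighbour was set against the range of the set. The gap exceeded Dixon's 95% critical value in 4 sets, where chance gives about 1 in 20, or 2.7. For *Hspa5* in the non-addicted group, rat 11 was the outlying high one, with 11359 counts against 7132 to 9008 and a gap of 0.951 of the range. For *Hspa1a* in MA24, rat 9N was the outlying low one, with 14 counts against 28 to 29 and a gap of 0.953, a difference that rests on few counts. In MA12, rat 31 was low for *Xbp1* (1985 counts in a deep library, gap 0.852) and for *Chordc1* (764 counts, gap 0.846). The large values of rat 11 for *Hspa1a*, *Hspa1b* and *Hspb1* did not exceed that value.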

How the results depend on the processing

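No paired analysis was possible because the groups share no rat numbers. Of 463 values of single members under the alternatives, 440 kept their direction and their side of the threshold, 21 changed sign and 2 passed the threshold.

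No member was a DEG in MA24 vs. MA12 or in non-addicted vs. MA12 under any alternative run. In non-addicted vs. MA24, 1 (*Hspa5*) was with total counts (log2 FC 0.622), and 0 to 1 were with a rat left out, the 1 being *Hspa5* without non-addicted rat 13 (0.590). Of the other chaperones in MA24 vs. MA12, 1 (*Dnajb14*) was called by DESeq2, by the likelihood ratio test, with total counts and with TMM factors taken before the variance filter, and 0 to 1 with a rat left out (1 without MA24 rat 9N). The pairs of members that correlated went from 9 to 1 without the 2 farthest rats and to 0 on deviations from the group means.

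Counts of DEGs over all genes moved more, and the cause was not tested. In MA24 vs. MA12 the 215 became 323 with total counts, 330 by DESeq2, 355 by the likelihood ratio test and 78 with only rats numbered with N. Higher calls were 83 of 215, and 58 of 323 with total counts. Leaving out a rat gave 80 (without 14N) to 371 (without 9N). In non-addicted vs. MA12 the 11 became 5 without the variance filter, 78 by DESeq2, 91 by the likelihood ratio test, 23 with TMM factors taken first and 40 among rats whose number lacks an N, and 2 (without MA12 rat 21) to 53 (without non-addicted rat 13) with a rat left out. In non-addicted vs. MA24 the 16 became 10 without any filter, 0 without the variance filter (2229 genes at an unadjusted p below 0.05), 72 with total counts, 122 by DESeq2, 150 by the likelihood ratio test, 0 with all 3 groups in the fit (2025 at an unadjusted p below 0.05) and 39 with TMM factors before the variance filter, and 0 (without non-addicted rat 11 or 12) to 172 (without non-addicted rat 13) with a rat left out.

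Some log2 FCs changed sign. In MA24 vs. MA12, *Hspa8* was -0.0668 with only rats numbered with N, and *Hspb1* 0.00261 with RLE factors and 0.00285 with DESeq2. With a rat left out, the log2 FC in MA24 vs. MA12 ran from -0.342 to 0.172 for *Hspa1b*, -0.00776 to 0.0689 for *Hspa8*, -0.0181 to 0.0733 for *Dnajb1*, -0.0362 to 0.0142 for *Hsp90ab1* and -0.147 to 0.270 for *Hspb1*. That of *Hspb1* ran from -0.130 to 0.549 against MA12 and -0.122 to 0.404 against MA24 in the non-addicted rats, the lowest without rat 11. Against MA24, *Hsp90aa1* ran from -0.0280 to 0.106 and *Hsf1* from -0.160 to 0.0175.

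Depth limits *Hspa1a* and *Hspa1b*, with 7 to 96 counts per rat. The other 8 members had 116 or more, and their counting error was not worked out. The number of DEGs depended on single rats in every comparison. The mark N goes with the abstinence time, and among rats numbered with N only 2 MA12 rats remain.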

Other observations

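Some further genes, chosen after their values were seen among those with at least 50 counts in non-addicted rat 11, were higher in that rat than in all others and are given as values only. The filter used the counts of rat 11, so a gene could enter through that rat alone. By a fixed margin in log2 CPM, 41 of 10802 such genes were highest in rat 11. The same rule gave 32 of 11012 in rat 31, 26 of 10643 in rat 14N and 5 of 10800 in rat 9N, the fewest. Only part of the list is named, and it also held *Gabre* and *Sstr3*. *Avp*, the vasopressin gene of the hypothalamus, had 181 counts against 2 to 17 in the other 11 rats. *Htr1a*, a serotonin receptor gene, had 100 counts against 2 to 33. *Nr4a3*, an activity-induced nuclear receptor gene, had 577 against 53 to 229, *Fosl2*, of the FOS family, 226 against 52 to 137, and *Rasd1*, a small GTPase gene raised by glucocorticoids, 680 against 125 to 444. Among them were chaperone partners: *Sdf2l1*, an ER protein that works with BiP, had 963 counts against 339 to 634, and *Bag3*, a nucleotide exchange factor of inducible HSP70, had 700 against 336 to 497. What these genes have in common in that rat was not tested.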
